A study of Homo sapiens with 18 samples.

Results

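Of the 18 libraries of this study, 9 come from cells given DMSO in place of the structure probe 2A3, and the events in these 9 are described here. They came from MDA-MB-231, an established human breast cancer cell line. The lines were a scrambled control (SCR) and a pair of knockdown lines labelled FBL1 and FBL2, and the series title concerns fibrillarin. The sources used here do not give the knockdown's promoter, the number of clones or the remaining fibrillarin, which these libraries do not measure. Each line was kept with DMSO, given as the background control, for 15 min at 37 °C. Its 18S ribosomal RNA was then reverse transcribed with specific primers, amplified with 3 primer sets and read on a nanopore instrument. All 9 DMSO libraries were used, with 1 library per line and primer set, so no test across libraries was possible and every difference below is a description of these libraries. Wells were seeded in duplicates, and the sources used here do not say if a library joins the wells. A measurement is 1 position read with 1 primer set.

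Reverse transcription of unprobed RNA leaves events, which are positions where the cDNA departs from the reference sequence or ends. The sources used here do not say which of these kinds was counted. Fibrillarin is the methyltransferase of box C/D ribonucleoproteins, which place a methyl group on the 2′-hydroxyl of the ribose at positions chosen by a guide RNA. Human 18S rRNA also carries many pseudouridines and a few modified bases. Among them is the hypermodified uridine U1248, whose modification blocks the base-pairing face. Such nucleotides can be read by reverse transcriptase with errors or pauses, so an untreated RNA serves as the background of a probing experiment.

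The sequences below come from the reference column of the deposited tables, with positions counted in 18S rRNA and written 5′ to 3′. Each shows 10 bases on either side of the position, which is in capitals. The 2 positions with events in the largest share of reads come first.
G60: augcaugucuGaguacgcacg
U1248: uuaauuugacUcaacacggga
The next 6 are 2′-O-methylated adenosines among the highest of that class, shown because this class carried events most often.
A99: cgaauggcucAuuaaaucagu
A159: aacugugguaAuucuagagcu
A512: ccggggagguAgugacgaaaa
A668: ugcugcaguuAaaaagcucgu
A576: uccacuuuaaAuccuuuaacg
A1031: uuaaucaagaAcgaaagucgg
The next 3 are the methylated adenosines that stayed under 0.5%, for contrast.
A27: ccaguagcauAugcuugucuc
A166: guaauucuagAgcuaauacau
A1678: ugcguugauuAagucccugcc
The next 3 lie directly 3′ of a methylated or acetylated cytidine.
G518: agguagugacGaaaaauaaca
G798: ggcccgaagcGuuuacuuuga
G1338: gugcauggccGuucuuaguug
The last 4 are the position just before a run of 6 adenosines and 3 positions whose values, apart from U1248, differed most between the lines.
G807: cguuuacuuuGaaaaaauuag
G789: gucccgcgggGcccgaagcgu
C570: aaugaguccaCuuuaaauccu
A724: gaggcgagccAccgcccgucc

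Events without reagent were rare at most positions and concentrated at few. Reactivity, the share of reads with an event, was deposited in steps of 0.1%. In SCR 508 of 2137 measurements were listed at 0, which means under 0.05%. In FBL1 410 and in FBL2 405 were listed at 0. A measurement was counted as having events at 0.5% or more. That held for 97 of 2137 measurements in SCR (4.54% of them), at 84 of 1816 positions, and for 100 in each of FBL1 and FBL2. In all 3 lines 79 measurements reached 0.5%, and in at least 1 line 118 did. The depth per position lay between 168818 and 644764 reads. At a reactivity of 1% the counting error was 0.0125% to 0.0236%, smaller than the rounding step.

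U1248 and G60 stood far above every other position. U1248 carries the 1-methyl-3-aminocarboxypropyl pseudouridine of the small subunit. With primer set 1 its reactivity was 54.2% ± 0.174 (deposited error) in SCR, against 52.8% ± 0.137 (FBL1) and 52.4% ± 0.147 (FBL2). With primer set 2 it was 50.9% ± 0.0962 in SCR, against 50.6% ± 0.0967 (FBL1) and 50.4% ± 0.0887 (FBL2). In every line similar shares of reads had and lacked an event there, and both knockdowns were below SCR in both sets. Its direct neighbours did not share this level. C1247 was at 0.1% and C1249 at 0.3% in all 3 lines and both sets. In SCR with primer set 1 the read depth was 178936 at C1247, 178938 at U1248 and 178946 at C1249, so it did not drop there. The kind of event at U1248 was not tested. G60, on no list of modified nucleotides used here, was at 95.4% ± 0.166 in SCR, against 95.5% ± 0.165 (FBL1) and 95.4% ± 0.144 (FBL2). Its neighbours U59 and A61 were at no more than 0.1% in any line. Whether G60 is a difference between the cells' rRNA and the reference was not tested. These positions supplied between 35.7% and 47.1% of the summed reactivity of a library. Without them the highest value in any library was 2.5%, and they are left out of the means of bases and neighbours below.

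**Figure D1:**
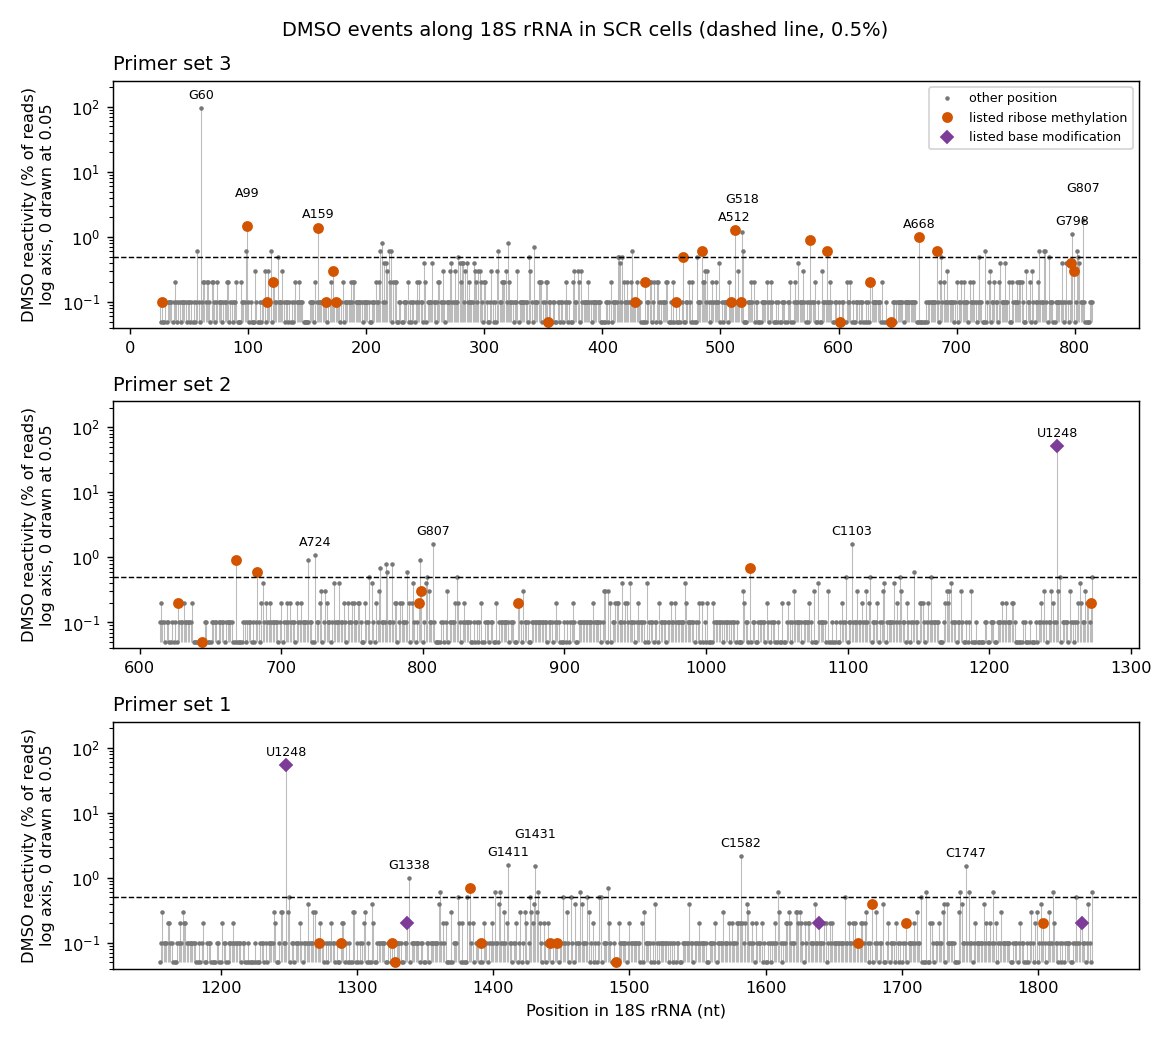
DMSO reactivity in SCR (percent of reads with an event, log axis, 0 drawn at 0.05) against position in 18S rRNA, 1 panel per primer set. Orange circles are listed ribose methylations, purple diamonds listed base modifications and grey points all others. Positions at 1% or more are named, and only G60 and U1248 exceed 10%.

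The next highest positions were unlisted nucleotides and methylated adenosines. C1582 had 2.2% in SCR, against 2.5% (FBL1) and 2.3% (FBL2). G807 had 1.8%, 1.8% and 1.9% in the same order with primer set 3, and 1.6%, 1.4% and 1.7% with primer set 2. G1411 had 1.6%, 1.7% and 1.7%. All 3 positions had events in every line, and their differences between lines were small beside their level. By the rule given below, C1582 was still counted higher in FBL1, and G807 with primer set 2 was counted lower in FBL1. C1103 had 1.6% in SCR and 1.5% to 1.6% in the knockdowns, C1747 had 1.5% and 1.6% in both, and G1431 had 1.5% in every line. In SCR 16 positions reached 1%.

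2′-O-methylated adenosines carried events far more often than other adenosines. Of 13 such adenosines read here, 10 reached 0.5% in SCR, in 11 of 14 measurements (78.6%). Of 392 adenosines on no list, 10 did, in 12 of 459 measurements (2.61%), and 23 of 474 adenosine measurements did in all (4.85% of them). The mean reactivity in SCR was 0.764% at methylated adenosines and 0.0917% at unlisted ones. In FBL1 the means were 0.729% and 0.0937%, and in FBL2 0.714% and 0.0915%. The excess sat on the methylated base itself. Over the 5 positions on either side the SCR means ran from 0.0571% to 0.158%, and the base directly 3′ of the methylated adenosine had the lowest of them. At a cut of 1%, 4 of 14 methylated and 1 of 459 unlisted adenosine measurements remained.

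The methylated adenosines differed widely among themselves. A99 had 1.5% in SCR, against 1.6% (FBL1) and 1.7% (FBL2). A159 had 1.4%, 1.3% and 1.2%. A512 had 1.3%, 1.2% and 1.2%. A99 was the highest of the class in every line and the only one of these 3 above SCR in the knockdowns. A668 had 1.0%, 0.9% and 0.9% with primer set 3, and 0.9%, 0.8% and 0.8% with primer set 2. A576 had 0.9%, 0.7% and 0.7%. A1031 had 0.7%, 0.6% and 0.5%. In this middle group SCR was the highest line at each position. A1383 had 0.7% in every line, A484 0.6% and A468 0.5% in every line, and A590 had 0.6%, 0.6% and 0.5%. At the low end A1678 had 0.4% in every line, A166 had 0.1% in every line, and A27, close to the end of the amplicon, had 0.1% in SCR and 0.2% in both knockdowns. A1678 was thus the member just under the 0.5% cut and A468 the one just at it. A27 and A166 were at the level of unlisted adenosines.

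**Figure D2:**
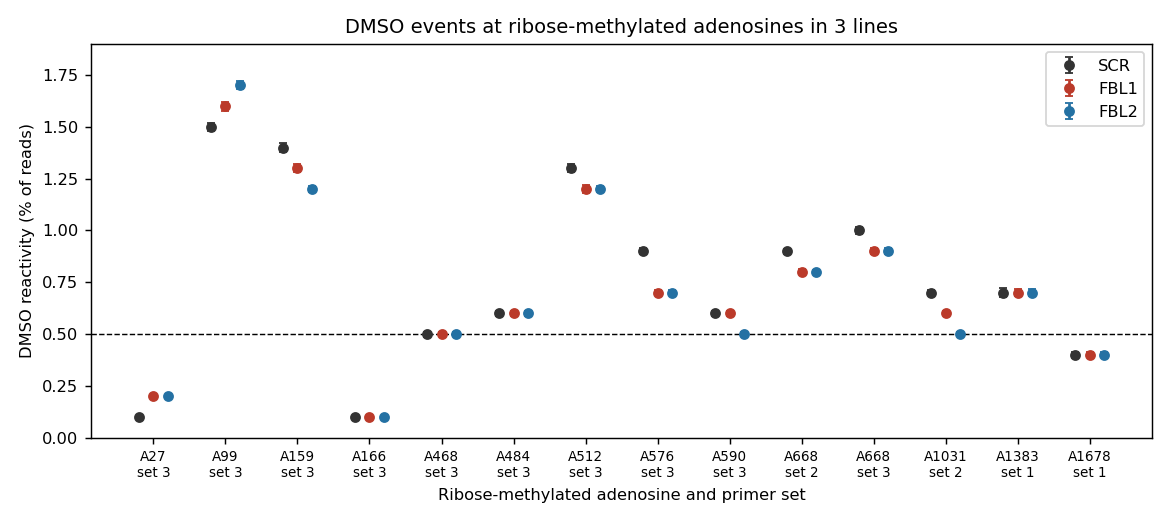
DMSO reactivity (percent of reads, with deposited counting errors) of the 14 measurements at ribose-methylated adenosines in SCR, FBL1 and FBL2. Most values stand above the dashed 0.5% line in all 3 lines, and A27, A166 and A1678 stay under it.

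Of the 11 methylated-adenosine measurements with events in SCR, 6 were lower in both knockdowns and 1 was higher in both. The other 4 were equal to SCR in FBL1 or in both knockdowns. The means over these 11 were 0.918% in SCR, against 0.864% (FBL1) and 0.845% (FBL2). The 12 unlisted-adenosine measurements with events in SCR went from 0.617% to 0.533% in FBL1 and 0.542% in FBL2, with 6 lower in both and 1 higher in both. A724 with primer set 2, at 1.1%, 0.6% and 0.5%, had the widest fall of these 12 and weighs on their means. With primer set 3 the same adenosine had 0.6%, 0.6% and 0.7%. Because these methylated and unlisted measurements were picked for a high SCR value, that choice favours a lower mean in the other lines. Over all 14 methylated-adenosine measurements, with no such choice, the mean difference from SCR was -0.0357 points in FBL1 and -0.05 in FBL2, less than 1 rounding step. Over the 459 unlisted ones it was 0.00196 and -0.000218.

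The other ribose-methylated bases carried few events. None of 14 measurements at methylated uridines and none of 9 at methylated cytidines reached 0.5% in SCR. Among unlisted uridines 3.39% of measurements did and among unlisted cytidines 4.23%, so with so few sites a count of 0 is near those shares. The means of the methylated ones were 0.164% and 0.167%, against 0.132% at unlisted uridines and 0.128% at unlisted cytidines. Among methylated guanosines only G683 did, with 0.6% in SCR in both primer sets that read it, so 2 of 11 measurements reached 0.5%. Over all ribose methylations together 13 of 48 measurements did in SCR, against 14 in FBL1 and 14 in FBL2. The means over these 48 were 0.340%, 0.327% and 0.331%. C1703 in the decoding region was the methylated cytidine with a higher value in both knockdowns, at 0.2% in SCR, against 0.5% (FBL1) and 0.4% (FBL2). C797 had 0.4% in SCR, against 0.2% (FBL1) and 0.5% (FBL2) with primer set 3, but 0.2% in every line with primer set 2.

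**Figure D3:**
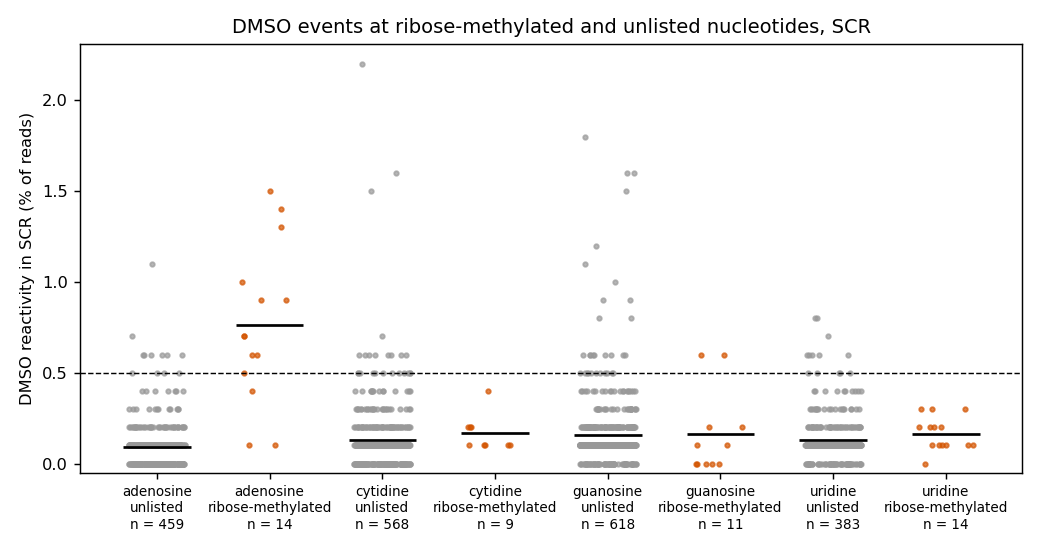
DMSO reactivity in SCR (percent of reads) of each measurement at unlisted (grey) and ribose-methylated (orange) nucleotides of each base, with the mean as a bar and the 0.5% cut dashed. Points are spread sideways for view, G60 is left out, and only ribose-methylated adenosines show a mean above the cut.

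Near methylated cytidines the events in SCR lay 1 base 3′ of some of them, a pattern chosen after the values were seen. The base directly 3′ of a methylated cytidine had a mean of 0.444% in SCR, against 0.456% (FBL1) and 0.433% (FBL2). In SCR 4 of 9 measurements reached 0.5%, with G798 counted in 2 primer sets. After any cytidine the SCR mean, without U1248, was 0.166%. At guanosines after a cytidine it was 0.233%, and 19 of 176 measurements had events (10.8%). G518, G798 and G1338 are guanosines after a cytidine, and the part of that context was not tested. G518, 3′ of C517, had 1.2%, 1.2% and 1.1%. G798, 3′ of C797, had 0.9%, 1.0% and 1.0% with primer set 2 and 1.1%, 1.2% and 1.1% with primer set 3. C1273, 3′ of C1272, had 0.5%, 0.4% and 0.4% with primer set 2 but 0.2% in every line with primer set 1. C1273 is the last position of primer set 2. G518 also precedes a run of 5 adenosines, as its sequence above shows, and the part of the run was not tested. A similar placement held at G1338, next to the acetylated cytidine C1337. G1338 had 1.0% in SCR, against 0.7% (FBL1) and 0.6% (FBL2), and C1337 itself had 0.2% in every line.

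Pseudouridines, made by a different class of enzyme, were near the level of unlisted uridines. Of 55 measurements 1 reached 0.5% in SCR, at U119 with 0.6% in every line, against 13 of 383 unlisted uridine measurements (3.39%). Their mean was 0.102% in SCR, against 0.111% (FBL1) and 0.105% (FBL2). The 7-methylguanosine G1639 and the 6-methyladenosine A1832 each had 0.2% in every line. Of the 94 SCR measurements with events other than G60 and U1248, 13 were thus at ribose methylations, 4 were 1 base 3′ of one and 1 was at a pseudouridine. The other events were on nucleotides of no list.

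Values also differed by sequence context. By base, 34 of 631 guanosine measurements reached 0.5% in SCR (5.39% of them), 24 of 578 cytidines (4.15%) and 16 of 454 uridines (3.52%). Means were 0.155% for guanosine, 0.129% for uridine, 0.128% for cytidine and 0.112% for adenosine. Adenosines were listed at 0 in 39.9% of measurements and guanosines in 13.2%. In means and event shares the base on the 5′ side separated positions more than the base itself. After a uridine the mean was 0.174% and after a cytidine 0.166%, against 0.105% after a guanosine and 0.0892% after an adenosine. After a pyrimidine 71 of 1028 measurements had events (6.91%), and after a purine 23 of 1106 (2.08%). Set by set in SCR, the shares were 7.60% and 1.69% (set 1), 5.59% and 1.69% (set 2) and 7.34% and 2.78% (set 3). The order also held without ribose methylations and the bases next to them on the 3′ side, at 6.10% against 1.61%.

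Among the 16 pairs of a base and the base 3′ of it, guanosine before adenosine had the highest mean. It was 0.223% in SCR, and 17 of 146 measurements had events (11.6%). In FBL1 13 of these 146 did and in FBL2 10, with means of 0.218% and 0.221%. The event share was uneven by set, with 4 of 52 (set 1), 5 of 49 (set 2) and 8 of 45 (set 3) in SCR. With set 1, 1 of 52 had events in FBL1 and 0 in FBL2. Among pairs with the base on the 5′ side, guanosine after cytidine had a mean of 0.233% and 19 of 176 with events (10.8%), and cytidine after uridine 0.214% and 13 of 108 (12.0%). Of the 17 guanosines before adenosine with events in SCR, 15 also followed a pyrimidine, where 15 of 74 measurements had events (20.3%), against 2 of 72 after a purine. The longer the run of identical bases that followed a position, the higher its mean. It was 0.131% before a single base, 0.157% before a run of 2, 0.187% before a run of 3 and 0.305% before a run of 4 or more. Of 38 measurements before such long runs 6 had events, at C1609, G1749, G807 in 2 primer sets, G320 and G518. The highest of them were G807 (1.6% and 1.8%) and G518 (1.2%), which weigh on that mean. The SCR median was 0.1% in every one of these classes. Single bases had a mean of 0.153%, and bases in runs of 2, of 3 and of 4 or more had 0.113%, 0.124% and 0.110%. In runs of 3 or more the first base had 0.162%, the second 0.0763%, the third 0.114% and the fourth 0.139%. These readings of context were made after the values were seen, they share positions with each other, and nanopore and reverse transcription contributions cannot be told apart.

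Differences between the knockdowns and SCR were few and small. A difference was counted at 0.2 percentage points or more, 2 rounding steps, and beyond about 2 times the combined deposited errors. FBL1 was higher at 17 of 2137 measurements (0.796%) and lower at 14 (0.655%). FBL2 was higher at 15 (0.702%) and lower at 12 (0.562%). Both were higher at 6 (0.281%) and lower at 9 (0.421%), and no measurement was counted higher in one and lower in the other. Both knockdowns are compared with the same SCR library, so an unusual SCR value enters both comparisons. With FBL1 taken as the control, the other lines were both higher at 2 measurements and both lower at 5. With FBL2 as the control, they were both higher at 1 and both lower at 7. All 9 measurements lower in both had at least 0.5% in SCR, and of the 6 higher in both 1 did. The rule itself favours this, since a fall of 0.2 points needs an SCR value of at least 0.2%. Counting against 1 SCR value also picks high SCR values for falls and low ones for rises.

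G789 and C570 had the largest differences upward. G789 rose from 0.4% in SCR to 1.2% (FBL1) and 0.8% (FBL2) with primer set 3, and from 0.6% to 0.9% in both with primer set 2. It was the only position of those read with sets 2 and 3 that was counted in both knockdowns and both sets. C570 rose from 0.3% to 0.9% and 0.6%. The others higher in both were C728 with primer set 3 (0.3%, 0.5% and 0.5%), C1703 above, and G1837 (0.4%, 0.6% and 0.6%). Of these 5 positions C1703 was the only one on a list. With the limit at 0.3 points, 8 of the 15 measurements remained, at G789, C570, U1248, A724, G719 and G1338. G1837 is within 20 positions of the end of its amplicon.

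The widest downward difference was at U1248 with set 1, where it fell by 1.4 and 1.8 points. With set 2 it fell by 0.3 and 0.5 points, on average less than A724 and G719 there. With the rounding error subtracted, U1248 with set 2 was no longer counted in both. With libraries scaled to the SCR mean, its mean change with set 2 was -4.86 points in place of -0.4. That larger fall comes from multiplying a high value by the library's scaling factor, and the deposited values do not show it. A724 fell from 1.1% in SCR to 0.6% (FBL1) and 0.5% (FBL2), and G719 from 0.9% to 0.5% and 0.4%, both with primer set 2. With primer set 3 the same positions had no such difference. A724 was there at 0.6%, 0.6% and 0.7%, and G719 at 0.5%, 0.5% and 0.4%. The high value was that of the single SCR library of primer set 2. G1338 next to the acetylated cytidine fell as given above. A576, a methylated adenosine, fell from 0.9% to 0.7% in both. G320 fell from 0.8% to 0.6% in both, U1714 from 0.5% to 0.3% and G1718 from 0.6% to 0.4%. U1714 and G1718 lie close to C1703, which went the other way.

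**Figure D4:**
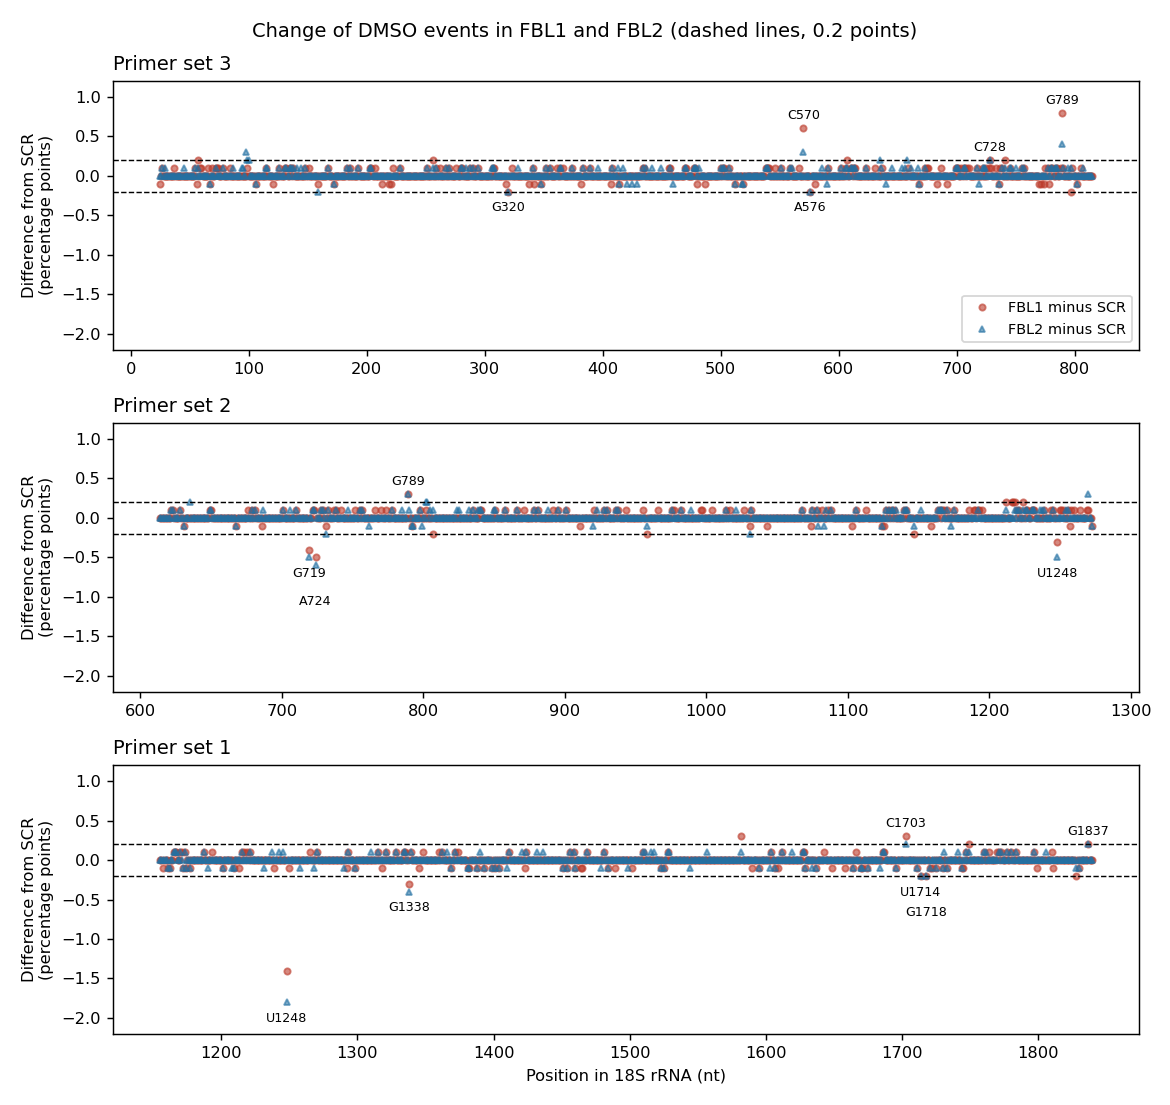
FBL1 minus SCR (red circles) and FBL2 minus SCR (blue triangles) DMSO reactivity in percentage points against position in 18S rRNA, 1 panel per primer set, with dashed lines at 0.2 points. Positions counted in the same direction in both knockdowns are named, and most values lie within 0.1 points of 0.

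Other counts were in 1 line only, 16 measurements in FBL1 and 12 in FBL2. In FBL2, 3 neighbouring positions were higher, chosen here after their values were seen. C98 had 0.6% in SCR, against 0.6% (FBL1) and 0.9% (FBL2), the methylated A99 had 1.5%, 1.6% and 1.7%, and U100 had 0.1%, 0.1% and 0.3%. G635 was higher in FBL2 with both primer sets that read it, at 0.1%, 0.1% and 0.3% in each. A159 and A1031, methylated adenosines, were counted lower in FBL2 and were 0.1 points lower in FBL1. In FBL1, 5 positions from 1212 to 1224 were higher with primer set 2. They were G1212, C1216 and A1217, each at 0.2% in SCR and 0.4% in FBL1, and C1218 and G1224, each at 0.1% and 0.3%. With primer set 1 the same positions had no difference above 0.1 points, so the count rests on 1 amplicon.

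Below the size rule, many positions moved by 1 rounding step, and the balance differed between the primer sets. With primer set 3, 126 of 791 measurements were a step or more above SCR in FBL1 and 34 below, and in FBL2 127 above and 21 below. With primer set 2, the numbers of 660 were 108 above and 21 below in FBL1, and 96 and 19 in FBL2. With primer set 1, the numbers of 686 were 57 above and 63 below in FBL1, and 63 and 56 in FBL2. Over all bases the upward balance was thus present in sets 2 and 3 and absent in set 1. Means without G60 and U1248 showed the same. They were 0.137% in SCR, against 0.137% (FBL1) and 0.138% (FBL2) with set 1, 0.125%, 0.137% and 0.136% with set 2, and 0.136%, 0.149% and 0.150% with set 3. On the 119 positions that sets 1 and 2 share, FBL1 was above SCR at 36 and below at 4 with set 2, and above at 14 and below at 12 with set 1. That stretch therefore gave the upward balance with set 2 and not with set 1. On the 202 positions that sets 2 and 3 share, both sets gave it. There FBL1 was above SCR at 28 and below at 8 with set 2, and at 41 and 10 with set 3. FBL2 was at 30 and 9 with set 2, and at 39 and 5 with set 3. The balance also differed by base within a set. In set 1 guanosines were above SCR at 31 and below at 15 of 208 in FBL1, and at 30 and 11 in FBL2. Adenosines there were at 6 and 14 of 148 in FBL1 and 8 and 15 in FBL2. Uridines were at 9 and 17 of 152 and 11 and 16, and cytidines at 11 and 17 of 178 and 14 and 14. The even total of set 1 thus joined guanosines moving up and other bases mostly moving down. In set 2 guanosines were at 37 and 8 of 198 in FBL1 and 39 and 5 in FBL2, and adenosines at 23 and 3 of 156 in FBL1 but 9 and 6 in FBL2. In set 3 guanosines were at 50 and 8 of 225 in FBL1 and 45 and 5 in FBL2, and adenosines at 8 and 12 of 170 in FBL1 and 13 and 11 in FBL2.

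Positions read from 2 amplicons show how far a value differed between primer sets. Each primer set of a line is 1 separate library, so the amplicon and the library cannot be told apart within a line. Sets 2 and 3 share 202 positions, from 614 to 815. The listed values were equal at 155 of them in SCR, against 155 in FBL1 and 156 in FBL2. The size rule counted 11 positions as different in SCR (5.45%), against 9 in FBL1 (4.46%) and 8 in FBL2 (3.96%). Across these positions Pearson's r between the sets was 0.928, 0.922 and 0.948, a description over positions that share their line and are not independent. Sets 1 and 2 share 119 positions, from 1155 to 1273. They differed at 6 in SCR (5.04%), against 11 in FBL1 (9.24%) and 10 in FBL2 (8.40%), and set 2 was the higher at 5, 10 and 9 of these. Without U1248, r was 0.743, 0.755 and 0.762.

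Some differences between amplicons recurred in all lines. Of 16 positions counted as different between sets 2 and 3 in any line, 4 were so in every line. Between sets 1 and 2 it was 4 of 15. G762, U774 and U778 were higher with set 2 than with set 3 in every line. U778 had 0.8%, 0.9% and 0.9% with set 2 and 0.5%, 0.4% and 0.5% with set 3. G807 was higher with set 3 in every line. G1159 had 0.5%, 0.4% and 0.5% with set 2 and 0.1% in every line with set 1, and C1180 and C1273 were also higher with set 2. U1248 was higher with set 1 in every line, by 3.3 points in SCR, against 2.2 in FBL1 and 2.0 in FBL2. That gap between amplicons was wider than the gap between SCR and either knockdown at the same position. Events themselves recurred. Of 13 positions with events in SCR with set 2 and 13 with set 3, 11 were the same. On the stretch shared by sets 1 and 2, SCR had 2 such positions with set 1 and 4 with set 2. The 2 in common were U1248 and A1250, and G1159 and C1273 reached 0.5% with set 2 only.

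**Figure D5:**
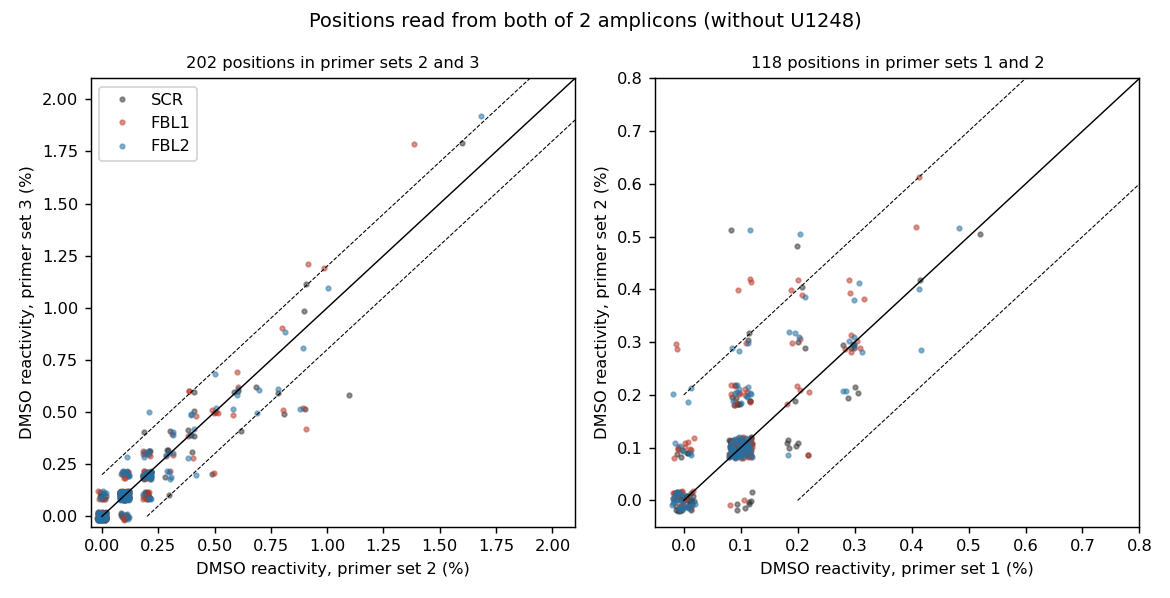
DMSO reactivity (percent of reads) of the positions read with 2 primer sets, set 3 against set 2 on the left and set 2 against set 1 on the right, in SCR, FBL1 and FBL2. Points are spread by a small amount for view, the solid line is equality and the dashed lines are 0.2 points away. On the left the points follow the line, and on the right more points lie above it than below.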

How the data were processed

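The 9 DMSO libraries were used and the 9 libraries with 2A3 were not. Per the labels, reads were nanopore amplicon reads of 18S rRNA. The submitters' processing notes list Bowtie2 and SAMtools with no version, and the sources used here do not give the reference build. The reactivity deposited by the authors is a fraction of reads per position in steps of 0.1%, shown here as percent. The deposited coverage is a signal, the read depth, and the deposited error is the root of the quotient of reactivity and depth. All positions with depth above 0 were kept.

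Python 3.11.15 with numpy 2.4.6 was used. Depth was high, and intervals cover counting error only, since PCR reads are not independent molecules. A difference was counted at 0.2 points and about 2 combined errors, and events at 0.5%. The text names the 5 highest positions per primer set, up to 4 per direction counted in both knockdowns, listed modified nucleotides at 0.5% or counted in a knockdown, and shared positions that differ by 0.5 points. Others were chosen after their values were seen. Lists of 41 ribose methylations, 43 pseudouridines and base modifications come from general knowledge. Members and lists were chosen with earlier results of these data known.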

Additional observations from a re-analysis of the deposited data

Results flagged for a closer look

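At 3 positions the differences went opposite ways under the rule used here, and none of these was tested. That rule took measurements counted in a knockdown where FBL1 and FBL2 lay on opposite sides of SCR. It also took shared positions where both knockdowns reversed between primer sets. Shared positions where only 1 knockdown reversed, such as U770 in FBL1, were not flagged. At C797 with primer set 3 FBL1 was 0.2 points below SCR and FBL2 was 0.1 above, so FBL1 minus FBL2 was -0.3 points. At G807 with primer set 2 the same held, with FBL1 0.2 points below and FBL2 0.1 above SCR, a difference of -0.3 points. At A802 the knockdowns were above SCR with primer set 2 (0.4% in SCR, against 0.5% (FBL1) and 0.6% (FBL2)) and below it with primer set 3 (0.6%, 0.5% and 0.5%). The mean knockdown change in set 2 minus that in set 3 was 0.25 points at A802.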

How the results depend on the processing

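With libraries scaled to the SCR mean, the only alternative that could turn a direction, no position counted in both knockdowns changed direction. Most counts depend on the threshold. At 0.3 points FBL1 was higher at 5 and lower at 5 measurements, FBL2 higher at 5 and lower at 5, and both higher at 3 and lower at 5. At 0.5 points these counts were 2 and 2, 0 and 4, and 0 and 2. With a change of at least 2-fold as well they were 9 and 2, 8 and 3, and 3 and 0. With the rounding error subtracted they were 5 and 4, 5 and 5, and 3 and 4. Of the 15 measurements counted in both knockdowns, 8 were kept at 0.3 points, 2 at 0.5 points, 3 at 2-fold, 7 with rounding error subtracted and 10 with scaling. With this scaling FBL1 was higher at 7, FBL2 at 5 and both at 3, and G60, A159 and A512 were newly counted lower in both. The scaling factor came from means without G60 and U1248, and multiplying by it shifts high values by the most points. Unscaled, G60 had 95.4%, 95.5% and 95.4% (SCR, FBL1, FBL2), so its count reflects the factor and not the deposited values. Without primer set 1 FBL1 was lower at 9 and both at 5. Without set 2 FBL1 was higher at 11 and lower at 8, and FBL2 lower at 7. Without set 3 FBL1 was higher at 10, FBL2 at 7 and both at 3. With FBL1 replacing SCR the other lines were both higher at 2 and both lower at 5, and with FBL2 they were both higher at 1. At an event cut of 0.3% 244 measurements had events in SCR and 31 were unlisted adenosines. At 1% there were 18, with 4 methylated and 1 unlisted adenosines. Between sets 2 and 3 at 0.3 points 4 positions differed in SCR and 2 in FBL2, and without 20 positions at each end 7 and 5. Between sets 1 and 2 at 0.3 points 3 differed in SCR, against 6 in FBL1 and 3 in FBL2, and without the ends 2 in SCR and 5 in FBL2. Leaving out positions of 10% or more lowered the library means to 0.137%, 0.137% and 0.138% with set 1 (SCR, FBL1, FBL2), 0.125%, 0.137% and 0.136% with set 2, and 0.136%, 0.149% and 0.150% with set 3. It lowered the SCR means of guanosine to 0.155%, of uridine to 0.129% and of single bases to 0.153%. The median was 0.1% in every library. No paired analysis was possible because every line and primer set is represented by 1 library. Rounding to 0.1% limits small values more than depth does.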
